A study of Mus musculus with 3 samples.

Results

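The genes examined here were 10 of the 32285 genes in the count matrices: the type 2 cytokine genes Il4, Il5 and Il13, the upstream cytokine gene Tslp, the receptor genes Il4ra, Il13ra1, Il2rg, Il17rb and Crlf2, and the transcription factor gene Gata3. They were taken by symbol from the feature list, where each symbol had 1 row, and their unique molecular identifiers (UMIs, one per captured transcript) were summed in each library over 6 cell classes defined by other genes: innate lymphoid, T, mast, basophil, myeloid and keratinocyte. Interleukin-4 signals through the IL-4 receptor alpha chain (Il4ra) paired with either the common gamma chain (Il2rg) or the IL-13 receptor alpha 1 chain (Il13ra1), and interleukin-13 uses the latter pair, so both cytokines reach STAT6 through one shared chain. GATA3 is the transcription factor that Th2 cells and group 2 innate lymphoid cells need to make these cytokines, and in skin it is also a keratinocyte and hair follicle gene. Thymic stromal lymphopoietin (Tslp), read through Crlf2 with the IL-7 receptor alpha chain, and interleukin-25, read through Il17rb, are alarm cytokines of barrier tissues that act on these producers.

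Skin immune cells were profiled by single-cell 3′ RNA sequencing in 3 libraries, 1 for each group. All came from dorsal skin of 8-week-old male C57Bl/6 mice in telogen, the resting phase of the hair cycle, after enrichment with CD45+ magnetic beads. WT_Ctrl was wild-type skin that received no UVB, WT_UV was wild-type skin after 3 UVB exposures, and RP_UV was skin of RP mice (Rosa26-rtTA; Tre-Ptgs2) after 3 UVB exposures. RP mice carry a doxycycline-inducible rat Ptgs2 transgene, which encodes Cox-2, under a transactivator at Rosa26, so the transgene is not limited to 1 cell type. Whether the wild-type mice of these libraries received doxycycline is not given in the sources used here. The deposited matrices held 5977, 6149 and 7240 cell barcodes, of which 5309, 5225 and 6070 were kept, and the kept cells summed to 25795684, 64556621 and 29128981 UMIs in the order WT_Ctrl, WT_UV and RP_UV. The median depth per kept cell was 4246, 10557 and 3774 UMIs in the same order. WT_UV was sequenced on its own flow cell, while WT_Ctrl and RP_UV shared one, so sequencing run and group cannot be told apart in any comparison with WT_UV. Between 7 and 9 kept barcodes were shared by any 2 libraries. Ptgs2 stood at 14.4, 117 and 486 per 1000000 UMIs in WT_Ctrl, WT_UV and RP_UV, and reads of the mouse gene and of the rat transgene cannot be told apart in these counts.

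Because each group was a single library, no difference has a replicate check and no test was possible. Levels are given as counts of UMIs per 1000000 UMIs of all genes in the class (CPM). Ranges in parentheses are exact 95% intervals, Poisson for a level, binomial for a share and conditional for a ratio, and they cover counting error only. A ratio is called past 2-fold only where the gene had at least 20 UMIs over both libraries in that class. Since the reads come from the 3′ end and differ in number between genes for reasons of transcript and primer, levels are compared between libraries and classes but not between genes.

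Class names rest on marker panels that contain none of the 10 genes and are to be read as X-like. The innate lymphoid class was 1 cluster, with 34 cells from WT_Ctrl, 145 cells from WT_UV and only 4 from RP_UV. Those were 1.14% (0.789–1.59), 3.65% (3.09–4.28) and 0.12% (0.0327–0.307) of the immune cells. The panel of that class summed to 4006, 3438 and 2261 CPM in it, and the T panel to 1698, 1478 and 4702 CPM, so in RP_UV the T panel was the higher one in these 4 cells. The T class held 307, 484 and 47 cells, of which 230, 248 and 17 lay in αβ T clusters and 77, 236 and 30 in γδ T clusters. Mast cells numbered 31, 90 and 37, basophils 0, 13 and 5, myeloid cells 2597, 3207 and 3222, and keratinocytes 1201, 520 and 1111. Most myeloid cells were macrophage- or monocyte-like, at 1627, 1990 and 2174, and neutrophils numbered 12, 58 and 576. Another 553, 670 and 551 cells lay in clusters left without a name.

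The 3 cytokine genes lie within one stretch of mouse chromosome 11, where the start of Il13 is 16037 bases from the nearer start of Il4 and the start of Il5 is 86092 bases from that of Il13. Their promoter windows are shown because the genes are neighbours, although, as given below, Il4 was counted mostly in other cells than Il13 and Il5. Each runs from 250 bases before to 50 bases after an annotated start, is written 5′ to 3′ on the strand of the gene, and comes from RefSeq on build GRCm38.p6. Capitals mark a match to AGATAA or AGATAG, or to TGATAA or TGATAG, on either strand, the letters of the classic GATA site.
Il13, chr11:53634653-53634952, minus strand: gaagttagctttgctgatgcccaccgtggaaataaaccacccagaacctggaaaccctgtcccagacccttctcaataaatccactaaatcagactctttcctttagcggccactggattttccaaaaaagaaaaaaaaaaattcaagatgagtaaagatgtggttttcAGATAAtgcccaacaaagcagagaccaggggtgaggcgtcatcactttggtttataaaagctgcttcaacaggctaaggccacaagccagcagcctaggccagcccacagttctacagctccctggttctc
Il5, chr11:53720544-53720843, plus strand: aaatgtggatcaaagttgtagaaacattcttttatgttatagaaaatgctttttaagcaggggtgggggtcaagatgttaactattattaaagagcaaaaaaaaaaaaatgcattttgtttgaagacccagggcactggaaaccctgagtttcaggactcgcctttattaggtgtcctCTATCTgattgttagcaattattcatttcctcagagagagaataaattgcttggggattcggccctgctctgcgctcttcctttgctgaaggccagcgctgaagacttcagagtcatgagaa
Il4, upstream start, chr11:53618616-53618915, minus strand: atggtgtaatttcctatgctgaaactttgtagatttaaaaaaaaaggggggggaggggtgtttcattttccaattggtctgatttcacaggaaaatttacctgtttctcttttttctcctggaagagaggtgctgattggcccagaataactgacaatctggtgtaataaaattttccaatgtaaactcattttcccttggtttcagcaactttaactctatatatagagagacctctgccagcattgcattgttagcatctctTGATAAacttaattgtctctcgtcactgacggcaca
Il4, inner start, chr11:53617289-53617588, minus strand: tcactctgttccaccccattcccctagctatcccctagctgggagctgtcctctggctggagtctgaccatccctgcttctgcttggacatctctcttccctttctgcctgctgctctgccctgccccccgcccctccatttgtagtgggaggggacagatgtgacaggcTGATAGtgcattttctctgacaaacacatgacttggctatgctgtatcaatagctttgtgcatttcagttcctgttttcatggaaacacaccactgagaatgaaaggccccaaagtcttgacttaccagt

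The match lay 81 bases before the start of Il13, 72 bases before that of Il5, 80 bases before the inner start of Il4 and 14 bases after its upstream start. Such a match was present in 29.8% of 32851 RefSeq promoter windows of the same length, so it is common by letters alone. Among the other members with a window, Gata3 held 1 match, 36 bases after its start, and Il4ra, Il13ra1, Il2rg, Il17rb and Crlf2 held none. The STAT6 motif, TTC and GAA with 4 bases of any kind between them, was found in 6.95% of all windows and, among the members, in the upstream Il4 window, 167 bases before the start. A match is a description of the letters and not a binding site.

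Il13, the effector cytokine of tissue type 2 responses, differed several-fold between the libraries. Over all kept cells it was counted 83 times in WT_Ctrl (3.22 CPM, 2.56–3.99), 887 times in WT_UV (13.7 CPM, 12.9–14.7) and 14 times in RP_UV (0.481 CPM, 0.263–0.806). The 3 intervals did not overlap: WT_UV was highest and RP_UV lowest. WT_UV lay 4.27-fold (3.41–5.41) over WT_Ctrl, and RP_UV lay 28.6 times (16.9–52.5) under WT_UV and 6.69 times (3.77–12.8) under WT_Ctrl.

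**Figure D1:**
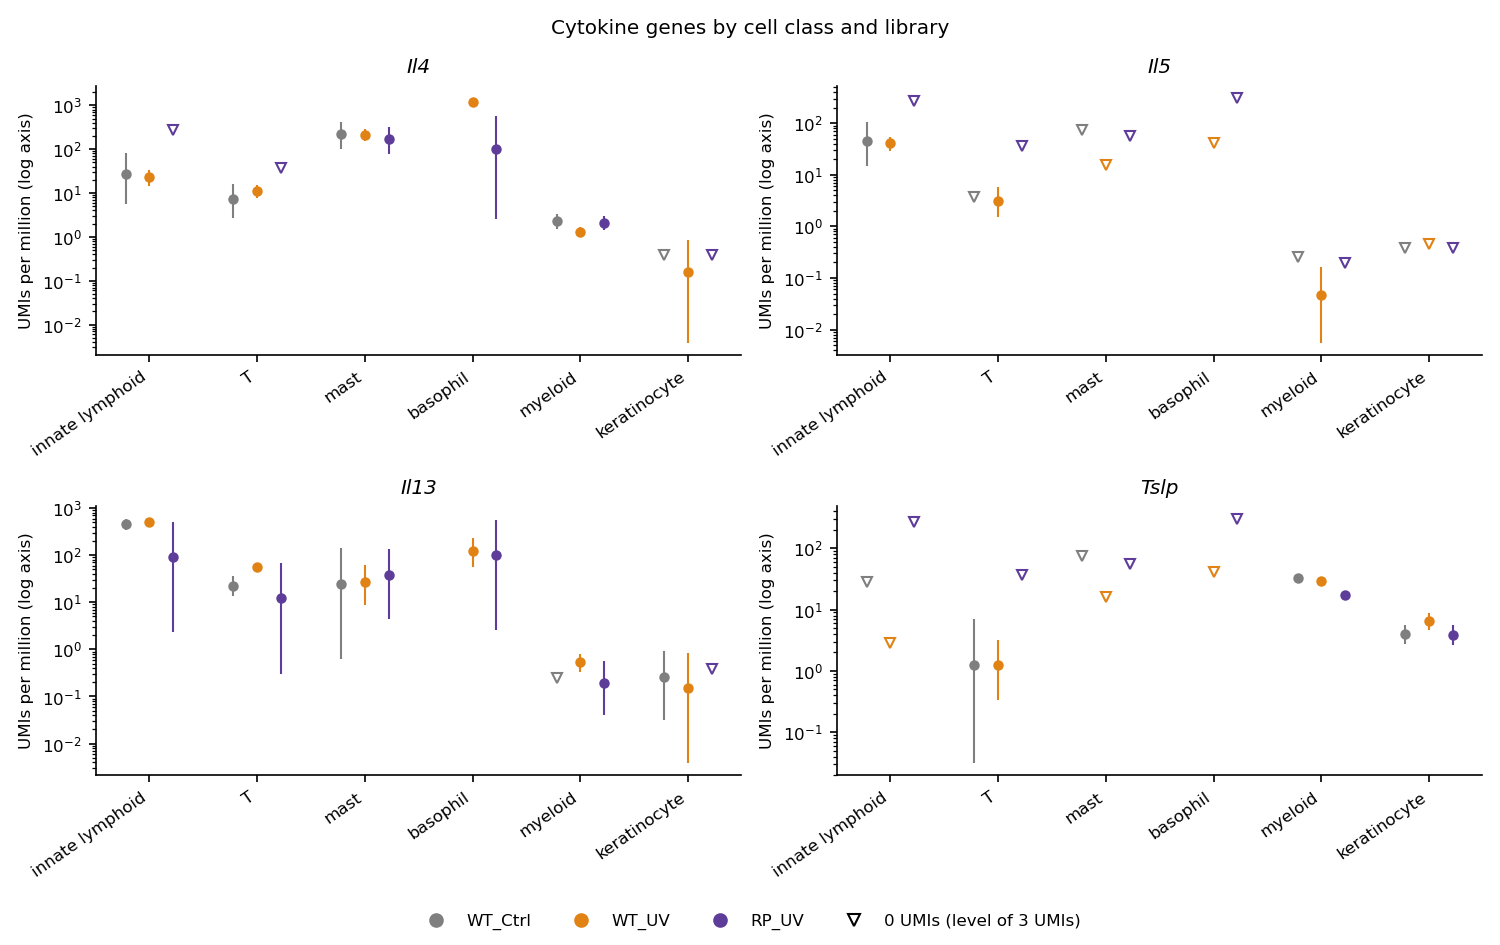
Il13, Il5, Il4 and Tslp in each cell class and library, in CPM on log axes. Bars are exact 95% Poisson intervals, and open triangles mark a count of 0 at the level of 3 UMIs. Il13 stood at 452 CPM in innate lymphoid cells of WT_Ctrl and 514 CPM in those of WT_UV, while Tslp was carried by the myeloid class.

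In the wild-type libraries most of these transcripts sat in the innate lymphoid cluster, where the level differed less than the library totals. Innate lymphoid cells held 59.0% (47.7–69.7) of all Il13 UMIs in WT_Ctrl and 60.9% (57.6–64.1) in WT_UV, against 7.14% (0.181–33.9), or 1 UMI of 14, in RP_UV. Within the class Il13 was 452 CPM (335–598) in WT_Ctrl, from 49 UMIs in 34 cells, and 514 CPM (472–559) in WT_UV, from 540 UMIs in 145 cells. These intervals overlapped, with a ratio of 1.14 (0.847–1.56), while the share of the class among immune cells differed as given above. In RP_UV the 4 cells gave 90.4 CPM (2.29–504), 5.68 times lower than WT_UV with an interval of 1.02 to 225, and 1 UMI cannot place that level. The low Il13 total of RP_UV thus stood beside few cells of the class, and the level per cell could not be measured there.

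The share of innate lymphoid cells with an Il13 UMI was 44.1% in WT_Ctrl and 66.9% in WT_UV before depth was matched. After each cell was thinned to 2000 UMIs it was 43.8% (26.4–62.3) of 32 cells and 40.6% (32.4–49.1) of 143 cells, so the shares overlapped at equal depth. In keratinocytes, taken as a class without Il13, no thinned cell had an Il13 UMI among 1061 in WT_Ctrl, which allows a share of up to 0.283%. Positive innate lymphoid cells held a median of 3 UMIs in both wild-type libraries, and the highest cell held 8 in WT_Ctrl and 41 in WT_UV. Of the 145 cells of WT_UV, 97 had Il13 and 119 had Gata3, and 81 had both. Cells in which none of 5 T cell receptor or Cd3 genes was detected gave nearly the same Il13 level as the whole class, at 453 CPM in 27 cells of WT_Ctrl and 556 CPM in 83 cells of WT_UV. They held 38 of the 49 Il13 UMIs of the class in WT_Ctrl and 316 of 540 in WT_UV. Of the libraries' 83 and 887 Il13 UMIs these were under 50%, so the shares given for the class include cells with T cell transcripts. In WT_UV 16 cells of the class had 3 or more of the 5 genes, against 1 in WT_Ctrl.

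T cells were the next source of Il13. The class held 18 UMIs in WT_Ctrl (22.5 CPM, 13.3–35.5), 178 in WT_UV (55.2 CPM, 47.4–63.9) and 1 in RP_UV (12.1 CPM, 0.307–67.6). WT_UV was 2.46-fold (1.51–4.24) over WT_Ctrl, and the RP_UV interval covered both. That ratio was under 2 when cells of 4000 genes or more were left out of WT_UV too, at 1.85, and with a mean over cells, at 1.74. The difference lay in clusters counted as αβ T, at 8.3 CPM (2.7–19.4) in WT_Ctrl and 80.9 CPM (68.4–95) in WT_UV, a ratio of 9.74 (4.08–30.4). Few cells carried it: 34 of 248 αβ T cells of WT_UV were positive, 5 cells held 47.3% of the 148 UMIs, and 1 cell held 31.

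By cluster, 74 of those UMIs came from 28 cycling T cells at 140 CPM, 59 from 120 cells of a Cd28-expressing αβ cluster at 95.5 CPM and 15 from 75 cells of a Cd8b1-expressing cluster at 30 CPM. The cycling cluster, with Gzmc, Nkg7 and Xcl1 among its leading genes, was counted as αβ from its summed Trac and Trdc UMIs. Other cycling lymphocytes within it were not separated. A cluster led by Ctla4, Icos, Tnfrsf4 and Ikzf2, genes of regulatory T cells, had none in 25 cells. Cells of γδ T clusters went the other way, from 65.1 CPM (34.7–111) in WT_Ctrl to 21.5 CPM (14.5–30.7) in WT_UV, 3.03 times lower (1.45–5.98). These clusters were not mixed alike: 54 of the 236 γδ cells of WT_UV lay in a Trdv4-expressing cluster without any Il13 UMI, against 6 of 77 in WT_Ctrl. In the cluster with the most γδ cells in both wild-type libraries, Il13 was 69.4 CPM in WT_Ctrl and 34.6 CPM in WT_UV. Further clusters led by Cd3g and Trdc were left without a name and are not in the γδ values. They held 13 and 4 cells of WT_Ctrl and 71 and 13 of WT_UV.

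Outside lymphocytes Il13 was sparse. Mast cells held 1, 5 and 2 UMIs in WT_Ctrl, WT_UV and RP_UV, at 24.9, 26.5 and 37.1 CPM with intervals that overlapped throughout. The 13 basophils of WT_UV held 9 UMIs, or 122 CPM (55.8–232). Myeloid cells had 0, 23 and 3 UMIs, and 18 of the 23 in WT_UV were in 5 of 3207 cells. Macrophage- or monocyte-like cells of WT_UV held 19 of them, 8 in the Cd209d-expressing and 9 in the Ctla2a-expressing cluster described below. The latter cluster also held 2 Il5 and 3 Il17rb UMIs in WT_UV. Against the limit taken for the count of 0 in WT_Ctrl, 3 counts, the myeloid level of WT_UV, 0.533 CPM, was 2.12-fold higher. Keratinocytes held 2, 1 and 0 UMIs. The cells of unnamed clusters held 131 Il13 UMIs in WT_UV, of which 59 lay in a cluster whose leading genes belonged to both T and dendritic cells.

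**Figure D2:**
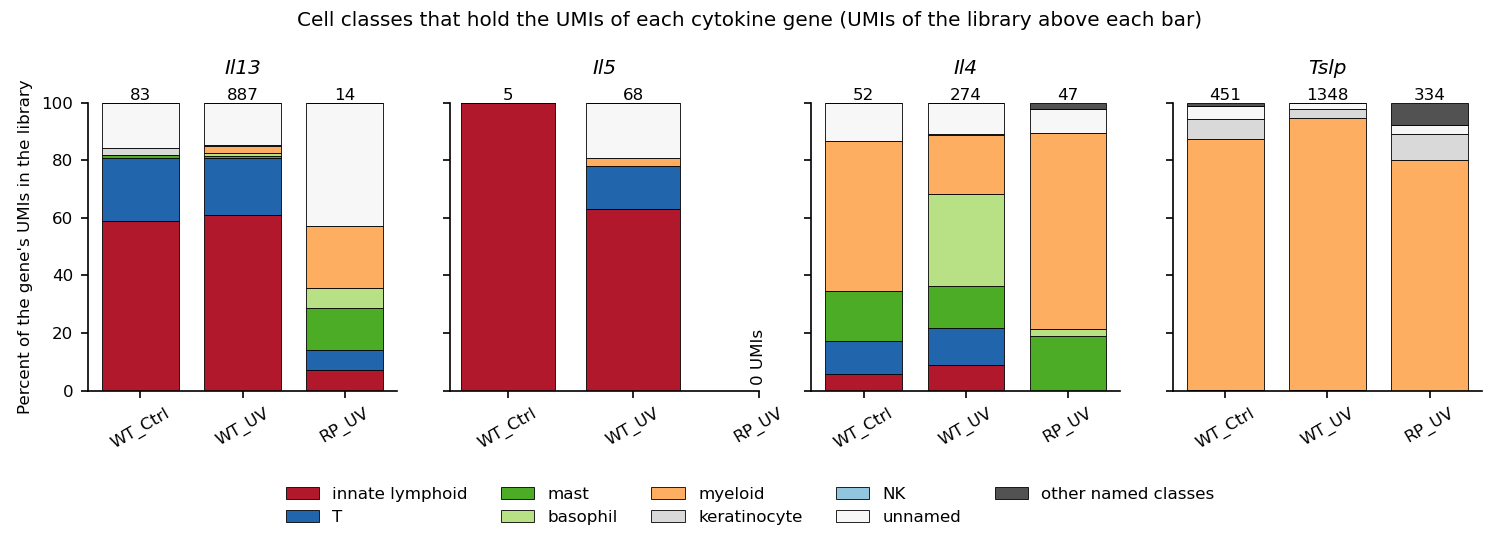
Share of each library's Il13, Il5, Il4 and Tslp UMIs that each cell class held, in percent, with 1 stacked bar for each library and gene. Innate lymphoid cells held 59.0% and 60.9% of the Il13 UMIs of WT_Ctrl and WT_UV and 7.14% of the 14 UMIs of RP_UV.

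Il5, the eosinophil growth and survival factor, followed Il13 at a far lower count. It was counted 5 times in WT_Ctrl (0.194 CPM, 0.0629–0.452), 68 times in WT_UV (1.05 CPM, 0.818–1.34) and not at all in RP_UV. WT_UV was 5.43-fold (2.22–17.3) over WT_Ctrl and 10.2-fold over the limit for RP_UV, taking 3 counts over the library as the limit of a count of 0. All 5 UMIs of WT_Ctrl and 43 of the 68 of WT_UV were in innate lymphoid cells. Their level was 46.2 CPM (15.0–108) in WT_Ctrl and 40.9 CPM (29.6–55.1) in WT_UV, and the difference was not detectable at this depth, with WT_UV 1.13 times lower (0.349–2.84). In WT_UV, 30 of 145 innate lymphoid cells had Il5, and 25 of these 30 also had Il13. T cells of WT_UV held 10 UMIs, unnamed clusters 13, and mast cells, basophils and keratinocytes none in any library.

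Il4, the founding cytokine of Th2 differentiation, was spread over more classes than Il13 and Il5. Libraries held 52, 274 and 47 UMIs, at 2.02 CPM (1.51–2.64) in WT_Ctrl, 4.24 CPM (3.76–4.78) in WT_UV and 1.61 CPM (1.19–2.15) in RP_UV. WT_UV stood above the others, 2.11-fold (1.56–2.89) over WT_Ctrl, with RP_UV 2.63 times (1.92–3.67) under it. WT_Ctrl and RP_UV overlapped.

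Basophils had the highest Il4 level of any class in WT_UV. Their 13 cells there held 87 UMIs, 31.8% (26.3–37.6) of that library's Il4, at 1180 CPM (945–1456). The transcript was concentrated: 5 cells held 79 of the 87 UMIs and 1 held 36. In RP_UV 5 basophils held 1 UMI, 102 CPM (2.58–567), 11.6 times lower with an interval of 2.03 to 463, and WT_Ctrl had no cell of this class, which allows a share of up to 0.1% of its immune cells.

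Mast cells, which store and secrete IL-4, carried Il4 in all libraries at 224 CPM (103–426), 212 CPM (151–288) and 167 CPM (76.4–317) from 9, 40 and 9 UMIs in the order WT_Ctrl, WT_UV and RP_UV. Those intervals overlapped, and the ratio of WT_UV to RP_UV was within counting error, with RP_UV 1.27 times lower (0.605–2.97). T cells held 6, 36 and 0 UMIs and innate lymphoid cells 3, 24 and 0, with WT_Ctrl and WT_UV overlapping in both. In WT_UV, 15 of the 16 innate lymphoid cells with Il4 also had Il13.

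A low Il4 count was also seen in macrophage- or monocyte-like cells of every library: 25 UMIs (3.9 CPM, 2.53–5.76), 50 (2.06 CPM, 1.53–2.71) and 26 (2.26 CPM, 1.47–3.31). No more than 2 UMIs were in any cell. WT_UV was 1.9 times lower (1.12–3.13) than WT_Ctrl. Keratinocytes had 0, 1 and 0 Il4 UMIs in 1201, 520 and 1111 cells, at most 0.154 CPM, and dendritic-like cells 0, 0 and 1. The macrophage counts lay in the Cd209d-expressing and Lyve1-expressing clusters described below, with 16, 35 and 11 UMIs in the first and 8, 14 and 13 in the second.

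Tslp, usually studied as a product of epithelium, was counted mainly in myeloid cells of this CD45+ enriched material. Macrophage- or monocyte-like cells held 361 UMIs in WT_Ctrl (56.4 CPM, 50.7–62.5), 1184 in WT_UV (48.7 CPM, 46.0–51.6) and 246 in RP_UV (21.3 CPM, 18.8–24.2). RP_UV was clear of the other intervals and lowest. WT_UV was 1.16 times (1.03–1.3) under WT_Ctrl, and RP_UV was 2.28 times (1.99–2.63) under WT_UV and 2.64 times (2.24–3.12) under WT_Ctrl. The whole myeloid class held 87.1%, 94.4% and 79.9% of the Tslp UMIs of the libraries.

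Keratinocytes held 31, 42 and 31 Tslp UMIs at 4.01 CPM (2.72–5.69), 6.45 CPM (4.65–8.72) and 3.91 CPM (2.65–5.55), and these intervals overlapped. At an equal depth of 2000 UMIs a cell, Tslp was seen in 11% (9.39–12.8), 8.44% (7.23–9.78) and 3.28% (2.54–4.17) of macrophage- or monocyte-like cells of WT_Ctrl, WT_UV and RP_UV, and in 0.848%, 0.249% and 0.47% of keratinocytes. Innate lymphoid cells, mast cells and basophils had no Tslp UMI in any library. Dendritic-like cells held 6, 12 and 1, at 1.71, 2.02 and 1.11 CPM.

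Tslp was not even among macrophage clusters. It was 65.5, 61.9 and 24.7 CPM in the cluster led by Ccl8, Cd209e and Cd209d, with RP_UV 2.5 times (2.02–3.13) under WT_UV. In the cluster led by Lyve1, Fcna and Timd4, genes of resident tissue macrophages, it was 68.3, 92.8 and 37.3 CPM, with WT_UV 1.36-fold (1.12–1.65) over WT_Ctrl and RP_UV 2.49 times (2.04–3.06) under WT_UV. The cluster led by Fn1, Ear2 and Mmp12, which is nearer to monocytes, held 0, 4 and 1 UMIs. In the cluster led by Cd93, Ccr1 and Mmp14 Tslp was 5.5 CPM in WT_UV and 6.87 CPM in RP_UV, within counting error (1.25-fold, 0.672–2.3). In the cluster led by Ctla2a and Gng11 it was 36.2 and 37.4 CPM in the same order, also within counting error (1.03-fold, 0.369–2.54). The lower level of RP_UV was thus measured in the Cd209d and Lyve1 clusters and not in the others, and each cluster divided further into groups made up mostly of 1 library.

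**Figure D3:**
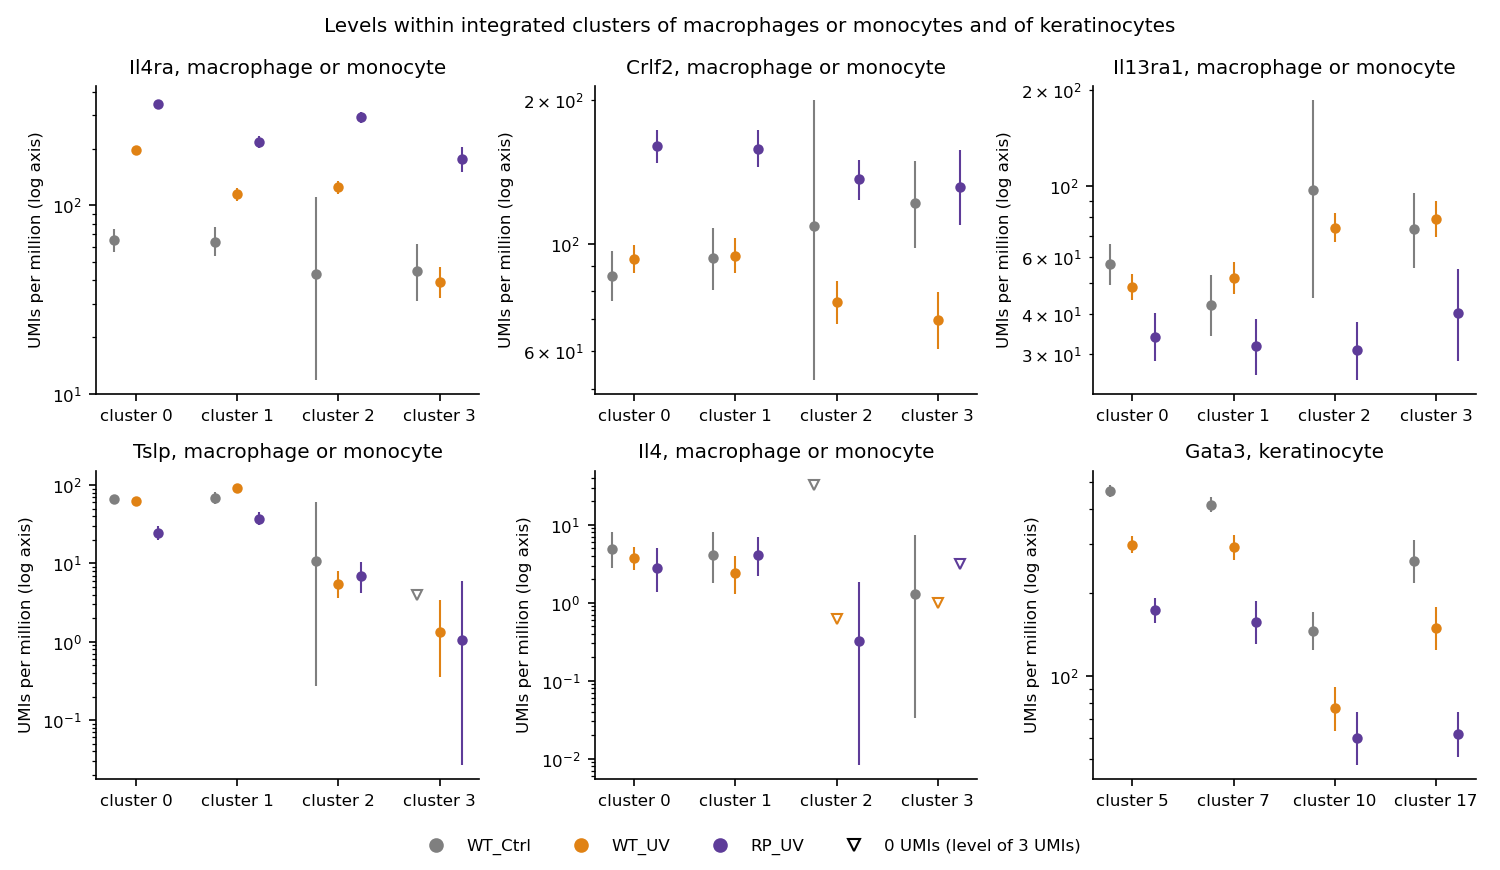
Levels of 5 genes within 4 of the 5 integrated clusters of macrophage- or monocyte-like cells and of Gata3 within 4 of keratinocytes, in CPM on log axes with exact 95% Poisson intervals, where open triangles mark a count of 0. Clusters 0, 1, 2 and 3 are those led by Cd209d, Lyve1, Cd93 and Fn1. Tslp was lower in RP_UV than in WT_UV in clusters 0 and 1, and Il4ra was higher in RP_UV in all of them. Gata3 was highest in WT_Ctrl and lowest in RP_UV in each keratinocyte cluster shown.

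Il4ra, the receptor chain shared by both cytokines, differed between all 3 libraries in myeloid cells. Myeloid cells held 528 UMIs in WT_Ctrl (44.2 CPM, 40.5–48.2), 4313 in WT_UV (99.9 CPM, 96.9–103) and 3655 in RP_UV (236 CPM, 229–244). The libraries were ordered WT_Ctrl, WT_UV, RP_UV with no overlap. Each step was past 2-fold, although the first was 1.99 when cells of 4000 genes or more were left out of WT_UV too: 2.26 (2.06–2.48) for WT_UV over WT_Ctrl and 2.36 (2.26–2.47) for RP_UV over WT_UV, or 5.34 (4.87–5.86) for RP_UV over WT_Ctrl. Macrophage- or monocyte-like cells gave the same order at 63.5, 139 and 276 CPM and dendritic-like cells at 11.7, 18.5 and 54.5 CPM. Neutrophils gave 44.2 CPM from 1 UMI in 12 cells of WT_Ctrl, and then 137 and 106 CPM, with RP_UV within counting error of WT_UV.

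The order of Il4ra held beyond counting error inside 3 of 5 macrophage clusters. It was 65.2, 196 and 343 CPM in the Cd209d-expressing cluster, 64.2, 115 and 216 CPM in the Lyve1-expressing cluster, and 43.4, 125 and 294 CPM in the Cd93-expressing cluster, which held 24, 421 and 569 cells. In the Fn1- and Ear2-expressing cluster WT_Ctrl and WT_UV did not differ beyond counting error, at 44.6 and 39.1 CPM, while RP_UV stood at 175 CPM, 4.48-fold (3.52–5.72) over WT_UV. In the Ctla2a-expressing cluster, which had keratin genes among its leading genes and held 201, 150 and 126 cells, Il4ra was 95.9, 121 and 304 CPM. WT_UV was there within counting error of WT_Ctrl, at 1.26-fold (0.814–2), and RP_UV was 2.51-fold (1.73–3.63) over WT_UV. At equal depth the share of myeloid cells with an Il4ra UMI was 8.5% (7.39–9.73), 16.0% (14.7–17.3) and 30.8% (29.0–32.7). In keratinocytes the corresponding shares were 1.79%, 1.5% and 2.82%.

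Il4ra in T cells did not follow the myeloid order as a class, at 32.4 CPM (21.2–47.5) in WT_Ctrl and 22.3 CPM (17.5–28.1) in WT_UV, which overlapped. αβ T cells had 24 UMIs in WT_Ctrl (39.9 CPM, 25.5–59.3) and 37 in WT_UV (20.2 CPM, 14.2–27.9), 1.97 times lower (1.13–3.38), and none in the 17 cells of RP_UV. γδ T cells had 2 UMIs in WT_Ctrl (10 CPM, 1.21–36.2) and 35 in WT_UV (25.1 CPM, 17.5–34.9), with overlapping intervals. Innate lymphoid cells held 5, 28 and 0 UMIs, with WT_Ctrl and WT_UV overlapping at 46.2 and 26.6 CPM. Keratinocytes were low throughout, at 8.66, 11.5 and 13.7 CPM.

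**Figure D4:**
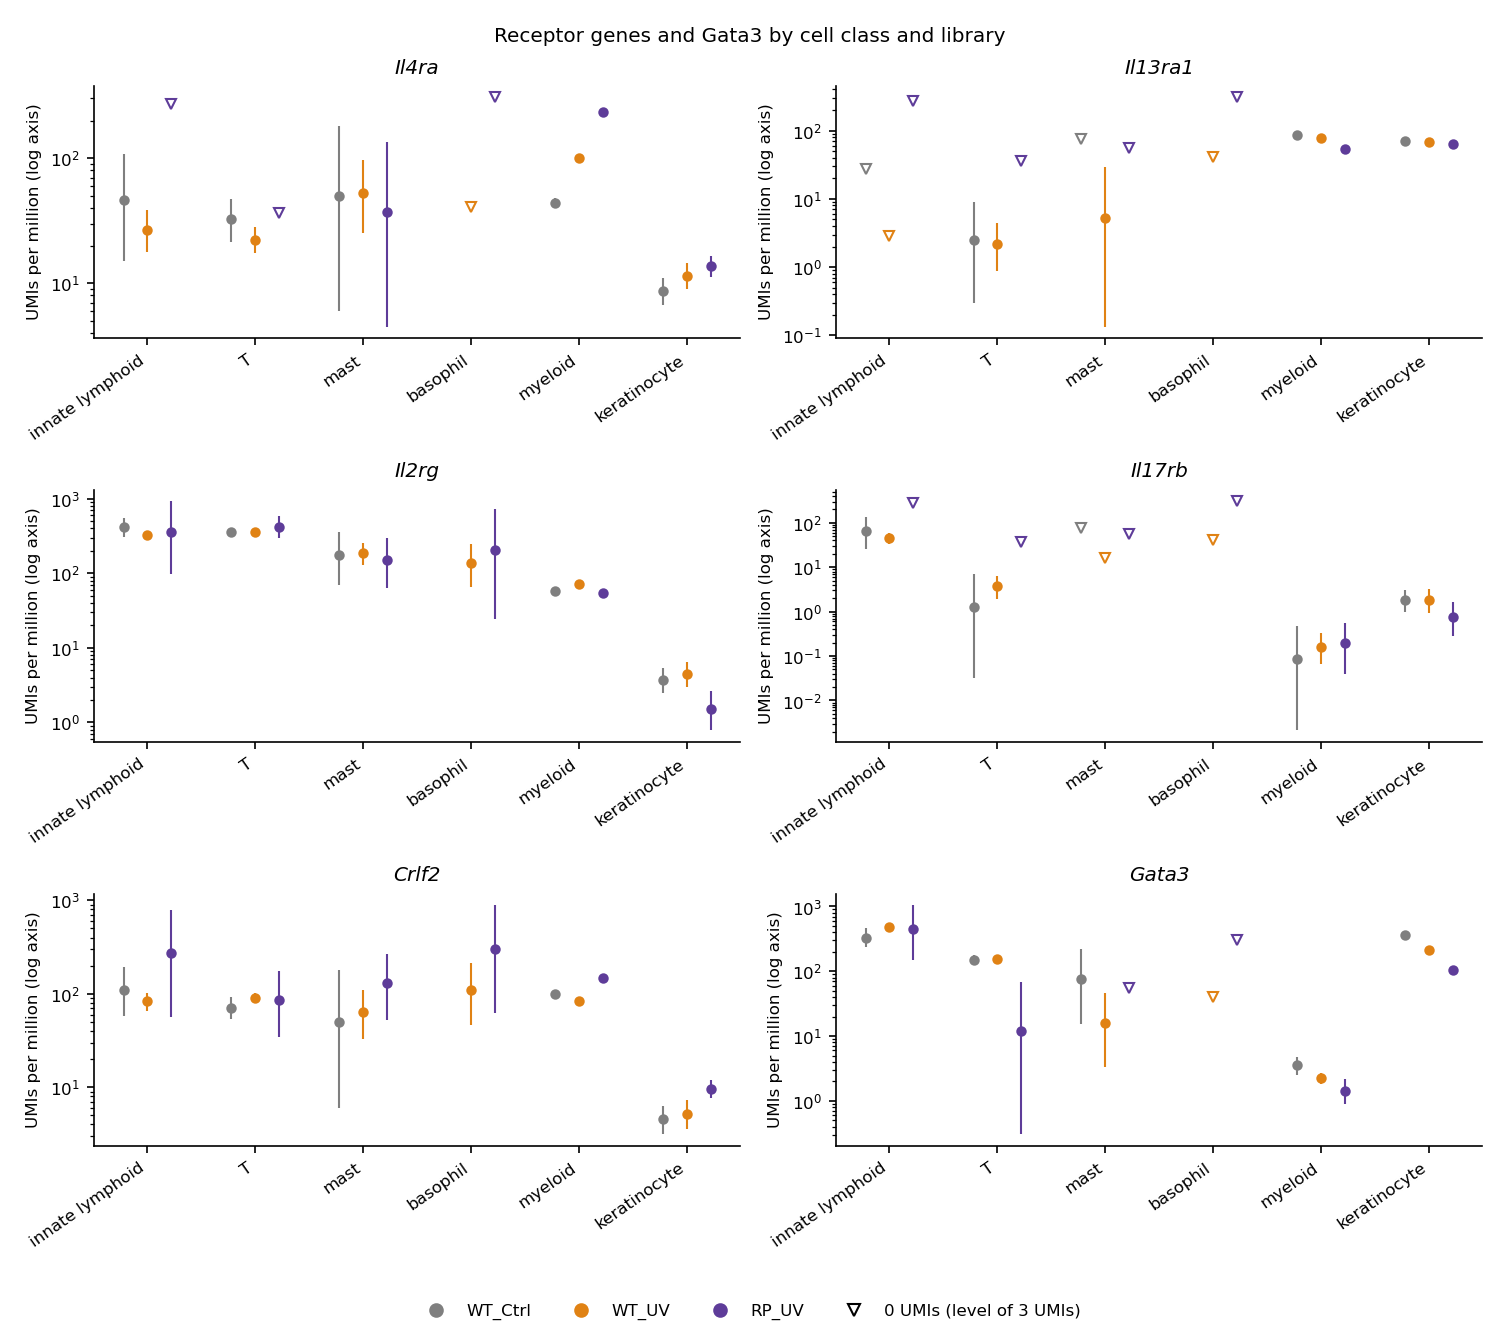
Il4ra, Il13ra1, Il2rg, Il17rb, Crlf2 and Gata3 in each cell class and library, in CPM on log axes with exact 95% Poisson intervals and open triangles for a count of 0. Over WT_Ctrl, WT_UV and RP_UV in turn, myeloid Il4ra stood at 44.2, 99.9 and 236 CPM and keratinocyte Gata3 at 367, 215 and 105 CPM.

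Il13ra1, which pairs with Il4ra to bind IL-13, did not run with it. Myeloid levels were 87.6 CPM (82.4–93.1), 79.2 CPM (76.6–81.9) and 53.0 CPM (49.4–56.7), so that RP_UV was 1.5 times (1.39–1.62) under WT_UV and WT_UV 1.11 times (1.03–1.19) under WT_Ctrl. In macrophage- or monocyte-like cells RP_UV was 1.75 times (1.57–1.97) under WT_UV, at 33.5 against 58.7 CPM, and dendritic-like cells ran 147, 116 and 80.0 CPM. Inside the Cd209d, Lyve1, Cd93, Fn1 and Ctla2a clusters of macrophages WT_UV over WT_Ctrl was 0.848, 1.22, 0.76, 1.08 and 0.907, within counting error in each. Neutrophils stood at 177, 278 and 196 CPM from 4, 71 and 197 UMIs, clear of dendritic-like cells in the irradiated libraries, while the interval in WT_Ctrl (48.2–453) covered them. Keratinocytes, the other class with this chain, stayed at 69.4, 68.7 and 62.9 CPM with overlapping intervals. No innate lymphoid cell had an Il13ra1 UMI, and T cells held 2, 7 and 0.

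Il2rg, the common gamma chain used by IL-4 as well as by IL-2, IL-7 and other lymphocyte cytokines, had its highest levels in lymphocytes. Myeloid cells held 52.6%, 52.6% and 79.9% of its UMIs at a lower level. Innate lymphoid cells stood at 415, 326 and 362 CPM and T cells at 361, 362 and 424 CPM, with overlapping intervals in both. γδ T cells of WT_UV were 1.28 times (1.04–1.56) under those of WT_Ctrl, at 448 against 571 CPM. Mast cells lay between at 175, 185 and 149 CPM. Myeloid cells had 57.2, 72.2 and 54.4 CPM, with WT_UV 1.26-fold (1.16–1.37) over WT_Ctrl and RP_UV 1.33 times (1.23–1.43) under WT_UV. Inside the Cd209d-expressing cluster these steps were 1.86-fold (1.56–2.23) and 1.85 times lower (1.58–2.19). Keratinocytes had 29, 29 and 12 UMIs, or 3.75, 4.46 and 1.51 CPM, a level that T cells exceeded in every library.

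Il17rb, the IL-25 receptor chain that marks many type 2 innate lymphoid cells, was sparse and centred on that class. Innate lymphoid cells held 7 UMIs in WT_Ctrl (64.6 CPM, 26–133), 47 in WT_UV (44.7 CPM, 32.9–59.5) and 0 in RP_UV, where 3 counts in the 4 cells would be 271 CPM. The wild-type intervals overlapped. In WT_UV, 41 of 145 cells had Il17rb, and 29 of these also had Il13. T cells held 1, 12 and 0 UMIs and keratinocytes 14, 12 and 6, and the ligand gene Il25 was not counted in any keratinocyte.

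Crlf2, the specific chain of the TSLP receptor, was carried by myeloid cells, lymphocytes, mast cells and basophils. Myeloid levels were 100 CPM (94.8–106) in WT_Ctrl, 83.6 CPM (80.9–86.4) in WT_UV and 147 CPM (141–153) in RP_UV. RP_UV was highest and WT_UV lowest: RP_UV was 1.76-fold (1.66–1.85) over WT_UV and WT_UV 1.2 times (1.12–1.28) under WT_Ctrl. The Cd209d, Lyve1, Cd93 and Fn1 clusters of macrophages gave 1.72, 1.67, 1.81 and 1.9 for RP_UV over WT_UV, and the Ctla2a cluster 1.51 (0.86–2.58), within counting error. Over the whole myeloid class, receptor and ligand ran in opposite directions between the irradiated libraries, Crlf2 higher and Tslp lower in RP_UV. By cluster this was measured only in the Cd209d and Lyve1 clusters, since Tslp was not measurably lower in the others. T cells stood at 71.1, 90.6 and 84.9 CPM and innate lymphoid cells at 111, 82.8 and 271 CPM, the last from 3 UMIs, with overlapping intervals in both classes. Mast cells had 49.9, 63.5 and 130 CPM from 2, 12 and 7 UMIs. Basophils had 109 CPM in WT_UV and 305 CPM in RP_UV, from only 8 and 3 UMIs. Keratinocyte Crlf2 was low, at 4.53, 5.22 and 9.7 CPM, with RP_UV 1.86-fold (1.23–2.87) over WT_UV. Il7r, whose product completes this receptor, was 47.3, 47.0 and 29.1 CPM in myeloid cells and 960, 693 and 633 CPM in innate lymphoid cells.

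Gata3 had its largest count in keratinocytes, and there it was lower at both steps. It was counted 2841 times in WT_Ctrl (367 CPM, 354–381), 1396 times in WT_UV (215 CPM, 203–226) and 834 times in RP_UV (105 CPM, 98.1–112). No interval overlapped another. WT_UV was 1.71 times (1.61–1.83) under WT_Ctrl, RP_UV 2.04 times (1.87–2.23) under WT_UV, and RP_UV 3.49 times (3.23–3.78) under WT_Ctrl. The panel of keratinocyte markers summed to 32446, 35816 and 34779 CPM in these cells.

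Keratinocyte clusters with at least 20 cells in every library showed the same order one by one. The remaining keratinocytes were not followed by cluster, among them a group led by Elovl6 and Scd1 with 8, 4 and 98 cells. The values of the whole class include them. Gata3 was 466, 298 and 173 CPM in the cluster led by Krt1, Krt10 and Mt4, genes of differentiating epidermis, 415, 292 and 157 CPM in the cluster led by Il1r2 and Smoc2, 145, 76.5 and 60.0 CPM in the cluster led by Defb6, Cst6 and Krt79, and 260, 149 and 61.8 CPM in a cycling cluster. In the third of these the step from WT_UV to RP_UV was within counting error, 1.28 times lower (0.956–1.71). In the first, second and cycling clusters RP_UV was 1.73, 1.85 and 2.41 times under WT_UV. At an equal depth of 2000 UMIs, 48.3% (45.2–51.3), 26.9% (22.7–31.6) and 16.5% (14–19.1) of keratinocytes had a Gata3 UMI. Keratinocytes are a residue of the CD45+ enrichment here, and they supplied 88.1%, 45.3% and 90.1% of the Gata3 UMIs of the libraries.

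In lymphocytes Gata3 was not lower in WT_UV than in WT_Ctrl. Innate lymphoid cells stood at 332 CPM (233–460) in WT_Ctrl, 475 CPM (434–518) in WT_UV and 452 CPM (147–1055) in RP_UV, where the 5 UMIs were all in 1 cell. WT_UV was 1.43-fold (1.02–2.06) over WT_Ctrl. T cells stood at 151 CPM (125–180) and 155 CPM (142–170) in the wild-type libraries and at 12.1 CPM (0.307–67.6), from 1 UMI in 47 cells, in RP_UV. That was 12.8 times (2.29–507) under WT_UV. αβ T cells of RP_UV had none in 17 cells, so that WT_UV, at 212 CPM, was at least 2.12-fold higher than the limit of that 0.

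The members past 2-fold were counted against all genes of the same class and contrast. In innate lymphoid cells 8 members had the 20 UMIs needed for a call between WT_UV and WT_Ctrl and none was past 2-fold, where 12.4% of 5738 genes were higher and 6.24% lower. In T cells 1 of 6 was higher, Il13, and none lower, where 5.97% of 9564 genes were higher and 1.77% lower. In myeloid cells 2 of 8, Il13 and Il4ra, were higher in WT_UV than in WT_Ctrl and none lower, against 5.43% and 3.85% of 13475 genes. Myeloid Il13, with 0, 23 and 3 UMIs, reached the minimum only through WT_UV. Its count of 0 in WT_Ctrl was taken as 3, so its calls here and in the next contrast carry little weight. Between RP_UV and WT_UV, 1 of 8 was higher, Il4ra, and 1 lower, Il13, against 5.43% and 8.52% of 13623 genes. From WT_Ctrl to RP_UV 1 of 7 was higher, Il4ra, and 1 lower, Gata3, against 7.05% and 8.42% of 12501 genes. Myeloid Gata3 was near the floor, with 42 UMIs in WT_Ctrl (3.52 CPM) and 22 in RP_UV (1.42 CPM), so this call carries little weight too.

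In keratinocytes none of 7 members was past 2-fold between WT_UV and WT_Ctrl, with 3.89% of 11651 genes higher and 4.06% lower. Between RP_UV and WT_UV, 2 of 6 were lower, Il2rg and Gata3, and none higher, against 7.49% higher and 5.81% lower of 11737 genes. Between RP_UV and WT_Ctrl, 3 of 7 were lower, Il2rg, Il17rb and Gata3, and 1 higher, Crlf2, against 9.63% higher and 10.6% lower of 11913 genes. Il17rb rested there on 6 UMIs in RP_UV and 14 in WT_Ctrl, with overlapping intervals, and Il2rg on 12 and 29. The median log2 ratio of the members with that minimum was within 0.5 of 0 in every class and contrast, from -0.49 for myeloid RP_UV over WT_UV, where all genes had -0.03, to 0.21 for keratinocyte WT_UV over WT_Ctrl, where all genes had -0.14.

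Over the whole myeloid class, genes that IL-4 or IL-13 induce in myeloid cells did not follow Il4ra as a group. That class held 533, 321 and 153 dendritic-like cells and 12, 58 and 576 neutrophils over WT_Ctrl, WT_UV and RP_UV. How far this make-up enters the counts and medians was not tested. Of 12 such genes with at least 20 UMIs between WT_UV and WT_Ctrl, 2 were higher (Chil3 and Arg1), 3 lower (Retnla, Ccl24 and Ccl11) and 7 between, with a median log2 ratio of -0.18 against 0.02 for all genes, of which 5.43% were higher and 3.85% lower. Between RP_UV and WT_UV, 1 was higher, Chil3, and 4 lower, Retnla, Ccl22, Pdcd1lg2 and Alox15, with a median of -0.34 against -0.03 for all genes, of which 5.43% were higher and 8.52% lower. From WT_Ctrl to RP_UV, 1 of 11 was higher and 7 lower, with a median of -1.18 against 0.01 for all genes, of which 7.05% were higher and 8.42% lower.

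**Figure D5:**
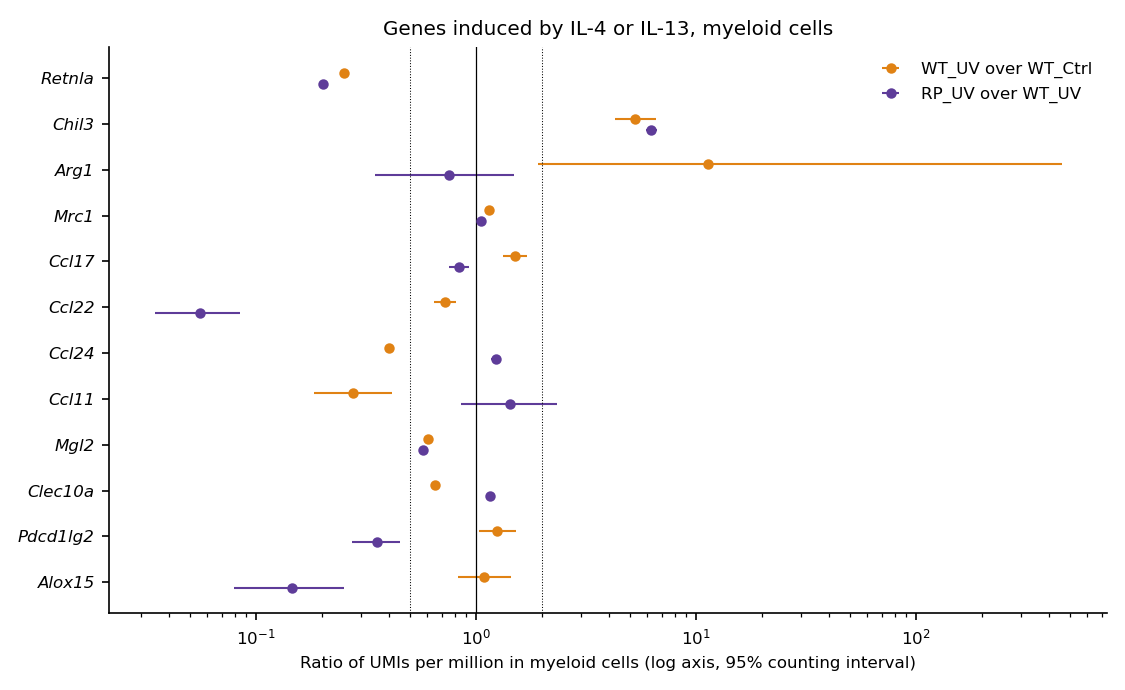
Ratios between libraries for the 12 genes induced by IL-4 or IL-13 in myeloid cells, on a log axis with exact 95% intervals and dotted lines at 2-fold. Both ratios of Retnla lie left of the lower line and both of Chil3 right of the upper one, while Mrc1 lies between the lines.

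Retnla, which encodes the secreted protein RELMα of alternatively activated macrophages, differed at both steps. It was 3346 CPM in WT_Ctrl, 840 CPM in WT_UV and 169 CPM in RP_UV, 3.98 times (3.93–4.04) and then 4.96 times (4.77–5.16) lower. In macrophage- or monocyte-like cells alone Retnla gave 5183, 1246 and 201 CPM. Chil3, the chitinase-like protein Ym1, went the other way at 7.71, 40.5 and 253 CPM, and 14, 42 and 283 CPM in macrophage- or monocyte-like cells, so the order was the same without the neutrophils, which had 226 CPM of Chil3 in RP_UV. Keratinocytes, taken as a class without Retnla, had 22.6, 12.8 and 2.27 CPM of it, in the same order.

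Mgl2, a lectin of dermal macrophages and dendritic cells, was 1956, 1181 and 674 CPM, lower at each step but past 2-fold only over both. Mrc1, the mannose receptor, stayed at 2000, 2279 and 2387 CPM. The chemokine gene Ccl24 was 277, 111 and 137 CPM, and Ccl22 was 35.6, 25.6 and 1.42 CPM, the last 18.0 times (11.9–28.9) under WT_UV. Dendritic-like cells held 20 of 425, 82 of 1107 and 7 of 22 myeloid Ccl22 UMIs, and macrophage- or monocyte-like cells 3, 36 and 1. A cluster led by Ccl22, Il4i1, Fscn1 and Ccr7, counted as myeloid but given no finer name, had 15, 35 and 4 cells. Arg1, the classic arginase of the group, had 1, 41 and 11 UMIs.

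Of the signalling and transcription genes, 12 had at least 20 UMIs in myeloid cells in each contrast. All levels in this paragraph are of the whole myeloid class, and none is given for macrophages alone. The class differed in make-up over WT_Ctrl, WT_UV and RP_UV, with 533, 321 and 153 dendritic-like cells and 12, 58 and 576 neutrophils. Stat6 itself was 60.6, 57.3 and 64.5 CPM and was not past 2-fold in any. Between WT_UV and WT_Ctrl 1 was higher, Cish, a STAT5-induced feedback inhibitor, at 12.2, 53.3 and 28.6 CPM over the libraries. Between RP_UV and WT_UV 1 was lower, Irf4, which macrophages use in the IL-4 response, at 40.4, 41.7 and 14.8 CPM. Between RP_UV and WT_Ctrl Socs3 and Cish were higher and Irf4 lower, with Socs3 at 65.9, 116 and 207 CPM. Of the neighbouring receptors, none of 8 was past 2-fold between WT_UV and WT_Ctrl. Between RP_UV and WT_UV, 1 of 7 was higher, Il1rap, the shared chain of the IL-1 and IL-33 receptors, at 8.04, 12 and 39.9 CPM, and 2 were lower, Il1rl1, the IL-33 receptor ST2, at 25.5, 20 and 7.95 CPM, and Il31ra, from 11, 49 and 3 UMIs. Il10, the regulatory cytokine, was 4.36, 9.45 and 21.6 CPM.

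In innate lymphoid cells 1 of 4 neighbouring receptors with at least 20 UMIs was past 2-fold, Il1rl1, with 10 UMIs in WT_Ctrl (92.3 CPM) and 18 in WT_UV (17.1 CPM), 5.39 times lower (2.22–12.3). Of 11 signalling and transcription genes Stat5b and Socs1 were higher and none lower, and of 2 induced genes with enough UMIs Arg1 was lower. In T cells Csf2, which encodes GM-CSF, was the other ligand past 2-fold, at 13.7 and 36.3 CPM, 2.64-fold (1.42–5.44). Keratinocyte Il33, the alarm cytokine read through Il1rl1, was 61.3, 53.8 and 25.3 CPM, with RP_UV 2.12 times (1.78–2.54) under WT_UV. Myeloid Il33 was sparse and went the other way, with 4, 11 and 27 UMIs, or 0.335, 0.255 and 1.74 CPM, and RP_UV 6.85-fold (3.29–15.3) over WT_UV. Il13ra2, which encodes a decoy receptor for IL-13, was 2.59, 8.61 and 9.45 CPM in keratinocytes, with WT_UV 3.33-fold (1.97–5.85) over WT_Ctrl.

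The genes whose levels ran most like each member were taken over 30 units of class and library, which share libraries and depth, among 13651 genes, by Pearson's r of log2(CPM + 10) and as a description only. Il4 was most like Rab44 (0.944), Cd200r3 (0.935) and Ms4a2 (0.927), of which Cd200r3 and Ms4a2 were basophil markers of the panels. Il5 was most like Ccr6 (0.942) and the member Il17rb (0.908), and Il13 was most like Furin (0.879) and Tspoap1 (0.876). Il2rg ran with Neurl3 (0.964), Rac2 and Lcp1 (both 0.926), and Gata3 with Pkp3 (0.869), a desmosome gene. Tslp was most like AI839979 (0.875), Adgre4 (0.842) and Tlr6 (0.836), and Il4ra had no close partner, with Fkbp15 first at 0.755.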

How the data were processed

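Single-cell 3′ RNA libraries of CD45+ enriched mouse dorsal skin were analysed, 1 for each of WT_Ctrl, WT_UV and RP_UV. The authors deposited UMI counts per gene and cell, not normalized, made with Cell Ranger 6.1.1 per the file headers on mm10 per the submitters' processing notes. As the methods of the study state, cells were kept above 200 and below 4000 genes (6000 in WT_UV) and below a mitochondrial share of 10%. Normalization used sctransform 0.4.2 and integration Seurat 5.3.0, in R 4.3.3 (2972 features, 30 dimensions, resolution 0.8), without the 10 genes and the 43 pathway genes among the features. Clusters of at least 100 cells were split by Leiden clustering (leidenalg 0.10.2, resolution 0.5), which gave 140 clusters. Of these, 111 were named from 18 marker panels. The panels were fixed, but the naming limits were set after the clusters had been seen, including the counting of immunoglobulin genes for B cells and of MHC class II genes for dendritic cells. No doublets were removed. Names are rebuilt and may differ from those of the study.

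UMIs were summed per library and class and divided by all UMIs of the class, per 1000000 (Python 3.11.15, NumPy 2.4.6, SciPy 1.17.1). Levels carry exact Poisson, shares exact Clopper-Pearson and ratios exact conditional 95% intervals. A count of 0 was given the limit of 3 counts, and a ratio to that limit leaves out the counting error of the other library. Depth ranged from 25795684 to 64556621 kept UMIs per library, and small classes were limited by it. With 1 library per group nothing was tested and no p-value is given. The interval code was tested on simulated data. All 10 genes were described in every class, pathway genes by counts past 2-fold and by name up to 20 per class, and likeness by the 3 highest correlations. The members and lists were chosen with earlier results of these data known. Promoter windows came from RefSeq (GRCm38.p6) for 9 of the 10 genes, with no coordinates of the count files used. Tslp has no window here.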

Additional observations from a re-analysis of the deposited data

Results flagged for a closer look

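Several members ran in opposite directions between WT_Ctrl and WT_UV in different cell classes, with intervals on either side of a ratio of 1. Each class came from the same 2 libraries, 1 per group, so none of these differences was tested. Il13 in WT_UV over WT_Ctrl was 9.74 in αβ T cells and 0.33 in γδ T cells. For myeloid Il13 the value was 2.12 against the limit taken for the count of 0 in WT_Ctrl. It rested on 23 UMIs in 10 of 3207 myeloid cells of WT_UV. That value carries little weight as a direction opposite to γδ T cells. Il4ra was 2.26 in myeloid cells and 0.507 in αβ T cells. Il2rg was 1.26 in myeloid cells and 0.784 in γδ T cells. Gata3 was 1.43 in innate lymphoid cells, 0.639 in myeloid cells and 0.584 in keratinocytes. Myeloid Gata3 was near the floor, at 3.52 CPM in WT_Ctrl and 2.25 CPM in WT_UV, from 42 and 97 UMIs. Keratinocytes had 367 and 215 CPM, and whether the myeloid counts came from other cells was not tested.

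Il13 was also counted in cells that entered no class of the report. Cells of unnamed clusters had 13.6 CPM in WT_UV and 4.37 CPM in WT_Ctrl. Barcodes removed by the limits on mitochondrial share and gene number had 1.32 CPM in WT_UV (24 UMIs in 924 barcodes) and 0.109 CPM in WT_Ctrl (1 UMI in 668).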

How the results depend on the processing

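No paired analysis was possible because each group was 1 library. Of 293 ratios recomputed under other settings, 255 moved by less than their counting interval and 38 moved by more. A change of direction was looked for only where the reported ratio was 2-fold or more either way, and 0 of those crossed 1. With cells of 4000 genes or more left out of WT_UV too, myeloid Il4ra was 1.99 for WT_UV over WT_Ctrl and 2.69 for RP_UV over WT_UV, and Il13ra1 0.607 for RP_UV over WT_UV. With a mean over cells in place of a sum the same 3 were 2.02, 2.01 and 0.852, and keratinocyte Gata3 in WT_UV over WT_Ctrl was 0.528. Without integration Il4ra in RP_UV over WT_UV was 2.25. With cells thinned to 2000 UMIs, RP_UV over WT_UV was 0.479 for myeloid Tslp, 1.86 for myeloid Crlf2 and 0.585 for keratinocyte Gata3, and Gata3 in WT_UV over WT_Ctrl was 0.478. With classes taken from marker UMIs of each cell Gata3 was 0.518 and 0.573 in the same 2 contrasts. The cause of these shifts was not tested.

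Counts of members past 2-fold moved under 26 of 72 settings. They were 0, 1, 2 or 3 in every one of these, set against 0 to 4 as reported: 1 or 2 in innate lymphoid cells, 0, 2 or 3 in T cells, 1 in myeloid cells and 0, 1 or 2 in keratinocytes. A minimum of 100 UMIs removed the sparse cytokines from the count, and thinning left fewer members to count. T cell Il13 in WT_UV over WT_Ctrl was 1.85 with the limit of 4000 genes and 1.74 with the mean over cells, under 2-fold in both. The 4 innate lymphoid, 5 basophil and 47 T cells of RP_UV could not place a level of Il13, Il5 or Il4. Shares of cells with a UMI were lower at 1000 than at 2000 UMIs a cell, beyond counting error in 10 of 11 cases, and at 1000 UMIs Tslp in macrophage- or monocyte-like cells was 4.8%, 4.87% and 2.02%.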
